A study of Mus musculus with 7 samples.

Results

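The 61 genes described here belong to 7 families of solute carriers that move amino acids and related small molecules across cell membranes. They were taken by symbol: every gene of the SLC1, SLC3, SLC6, SLC7, SLC36, SLC38 and SLC43 families in the array's annotation, apart from Slc7a1, Slc7a2 and Slc6a2. They are 61 of the 22180 genes with a probe set of 1 symbol. The symbol pattern also took in 3 opposite-strand genes (Slc7a6os, Slc36a1os and Slc6a19os), which are not transporters, so 58 are family members proper. SLC6 supplied 19 genes, SLC7 14, SLC38 11, SLC1 7, SLC36 5, SLC43 3 and SLC3 2.

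RNA came from endothelial cells of mouse embryonic lungs at E18.5, on a C57BL/6 background. One group held 3 arrays labelled wild-type and the other 4 arrays labelled Sash1-knockout (Sash1-/-), from littermates. Cells had been sorted as viable CD31+, CD45- and CD326- cells, and each sample was amplified and hybridised to its own 1-colour Affymetrix array. Neither the deleted stretch of Sash1 nor whether a sample was 1 embryo is given in the labels. The p-values then measure only sample-to-sample spread, part of which may be technical.

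Amino acid transporters work in layers. Heterodimeric exchangers pair an SLC3 heavy chain, which brings the complex to the cell surface, with an SLC7 light chain, which forms the pore. Sodium-coupled SLC38 and SLC1 carriers load the cell with glutamine, alanine and other neutral amino acids, and the exchangers trade these for leucine and its relatives. Several SLC36 and SLC38 proteins sit on lysosomes, where amino acids are released and sensed by the growth kinase complex mTORC1. When amino acids run short or stress arises, the transcription factor ATF4 induces a set of these transporters together with synthetases and biosynthetic enzymes.

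The arrays themselves set limits on any difference between labels. Sash1 had log2 signals of 9.02, 8.73 and 8.33 on wild-type-labelled arrays 1 to 3. On knockout-labelled arrays 1 to 4 it had 8.29, 8.21, 8.68 and 8.13. The groups overlapped, but only in that knockout 3 lay above wild-type 3. The Sash1 difference was -0.37 (limma adjusted p = 0.971), and -0.66 without those 2 arrays. Because the 2 were picked by their Sash1 values, that widening was fixed in advance and is no evidence about the labels. Groups are therefore named by their labels, and values without both arrays are given for the members whose differences moved most. The sort antigen Pecam1 (CD31) measured 11.12 ± 0.03 (SD, n = 3) and 11.12 ± 0.07 (SD, n = 4), Ptprc (CD45) 4.67 ± 0.20 and 4.34 ± 0.56, and Epcam (CD326) 5.03 ± 0.34 and 4.88 ± 0.55. The 10 pan-endothelial markers were all present, with a mean log2 signal of 10.11 to 10.19 on wild-type-labelled arrays and 10.06 to 10.29 on knockout-labelled arrays. All 12 epithelial markers were also above the background level defined next, at a list mean of 7.18 to 8.40 and 6.30 to 8.21, as were 9 of 10 leukocyte markers, all but C1qc, at 5.40 to 6.05 and 4.41 to 5.83. Signals of 7.07 to 7.42 and 7.04 to 7.75 were measured for the 8 fibroblast and mural markers, 4.90 to 5.97 and 4.54 to 5.86 for the 4 platelet markers found, and 5.06 to 5.99 and 5.08 to 5.38 for the 4 mesothelial markers, of which Lrrn4 was not above background. Only 1 of 6 erythroid markers, Slc4a1, was matched, at 4.48 to 5.18 and 4.83 to 5.17. The part of these other cell types in any transporter value was not tested, and in sorted bulk RNA fewer cells of a type and less RNA per cell cannot be told apart.

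To say which transporters were expressed, the mean log2 signal over all 7 arrays was set against that of 1394 olfactory and vomeronasal receptor genes, whose products serve smell and pheromone sensing. The 95th percentile of those receptors was 3.99. By this measure 33 of the 61 genes (54.1%) were expressed, against 57.5% of all genes, and 28 were not. Probe sets differ in brightness for the same amount of RNA, so these signals do not rank transporters by abundance. Of the genes nearest the limit, Slc7a14 lay just above it at 4.25 and Slc6a20b just below it at 3.90.

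**Figure D1:**
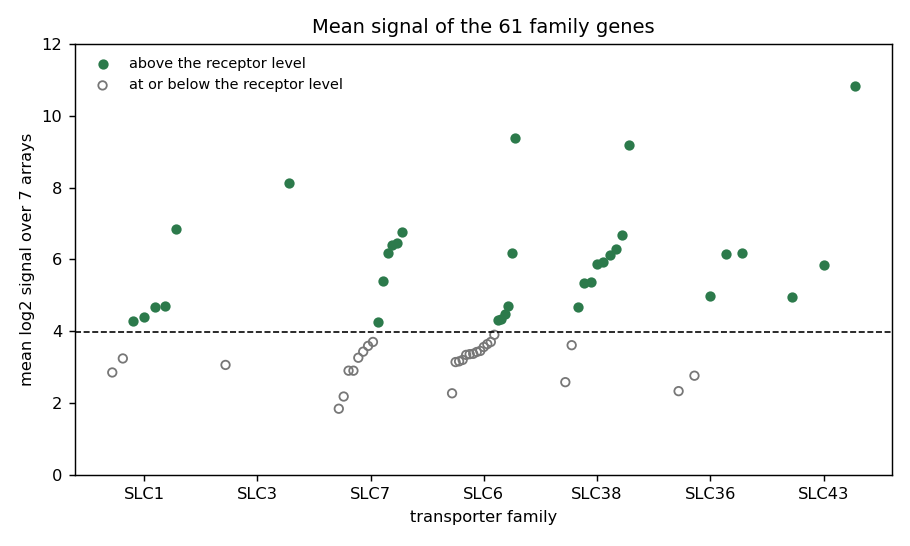
Mean log2 signal over 7 arrays (vertical axis) of each of the 61 genes, ordered by signal within its family (horizontal axis). Filled points lie above the dashed line at 3.99, the 95th percentile of olfactory and vomeronasal receptor genes, and open points at or below it. All 3 SLC43 genes and 9 of 11 SLC38 genes lie above the line, against 6 of 19 SLC6 genes.

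Each family had at least 1 gene above this limit. All 3 SLC43 genes did, as did 9 of 11 in SLC38, 5 of 7 in SLC1, 3 of 5 in SLC36, 6 of 14 in SLC7, 6 of 19 in SLC6 and 1 of 2 in SLC3. The SLC6 genes not above the limit were mostly carriers of neurotransmitters and of kidney and gut amino acids. They were the serotonin transporter Slc6a4 (mean 3.16), the glycine transporter Slc6a5 (3.20), the GABA carriers Slc6a11 (3.37), Slc6a12 (3.42) and Slc6a13 (3.70), the kidney and gut carriers Slc6a18 (3.45) and Slc6a19 (3.34), Slc6a15 (2.27), Slc6a16 (3.14), Slc6a17 (3.64), Slc6a20b (3.90), Slc6a21 (3.36) and the opposite-strand gene Slc6a19os (3.56). In SLC7 the cystine carrier Slc7a11 (3.26), the neutral amino acid exchanger Slc7a8 (3.59), the cationic carrier Slc7a3 (2.90), the kidney light chain Slc7a9 (2.90), Slc7a4 (3.70), Slc7a12 (1.84), Slc7a13 (2.18) and Slc7a15 (3.43) were not above it. The kidney heavy chain Slc3a1 (3.06), partner of Slc7a9, and the glial glutamate carriers Slc1a2 (2.85) and Slc1a3 (3.24) were not above it either. Slc36a3 (2.76), Slc36a1os (2.33), Slc38a8 (3.61) and Slc38a11 (2.58) completed the 28.

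Some genes known from brain or retina lay slightly above the limit. The dopamine transporter Slc6a3 had a mean of 4.49, the brain proline transporter Slc6a7 4.35, the Purkinje cell glutamate carrier Slc1a6 4.27, the retinal glutamate carrier Slc1a7 4.39 and Slc7a14 4.25. These 5 genes lay below the median of all genes, 4.46, except Slc6a3, and with that median as the limit 28 of 61 genes counted as expressed. Values of this size were often the same to 2 decimals on several arrays. A single value was shared by 4 or more of the 7 arrays in 4 of 33 expressed genes (Slc36a2, Slc43a2, Slc6a7 and Slc7a14) and in 10 of the 19 tested genes not above the limit. Over all tested members this was 26.9%, against 14.1% of all genes tested, so the spread between arrays of such genes is partly a set of ties.

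The labels were then compared with limma, fitted on the 16637 genes left after the dimmest 25% were dropped. That filter kept 52 of the 61 members and all 33 expressed ones. With an adjusted p (Benjamini-Hochberg) under 0.05 as the threshold, limma called 0 of the 52, and 0% of all genes. At an unadjusted p under 0.05 limma counted 1 member with a lower mean on the arrays labelled knockout, Slc38a2, and 0 with a higher mean. The shares of all genes were 0.962% lower and 2.38% higher at that p. None of the 52 members had labels that did not overlap, against 1.77% of all genes with every knockout-labelled array higher and 0.679% with every one lower.

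Of the tested members, 26 had higher and 26 lower means on the arrays labelled knockout, with a median difference of 0.00, beside 54.4% higher and a median of 0.02 over all genes tested. That split depended on scaling: it was 32 and 20 under quantile normalization (62.1% of all genes higher, median 0.05) and 34 and 18 under median centring (68.7%, median 0.07). Among the 33 expressed genes 16 were higher and 17 lower, again with a median of 0.00, and 27 had a difference under 0.2 log2 units in size. The median 95% confidence interval of an expressed member reached 0.371 log2 units to either side, against 0.345 over all genes, so differences smaller than this could mostly not be resolved with 7 arrays.

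**Figure D2:**
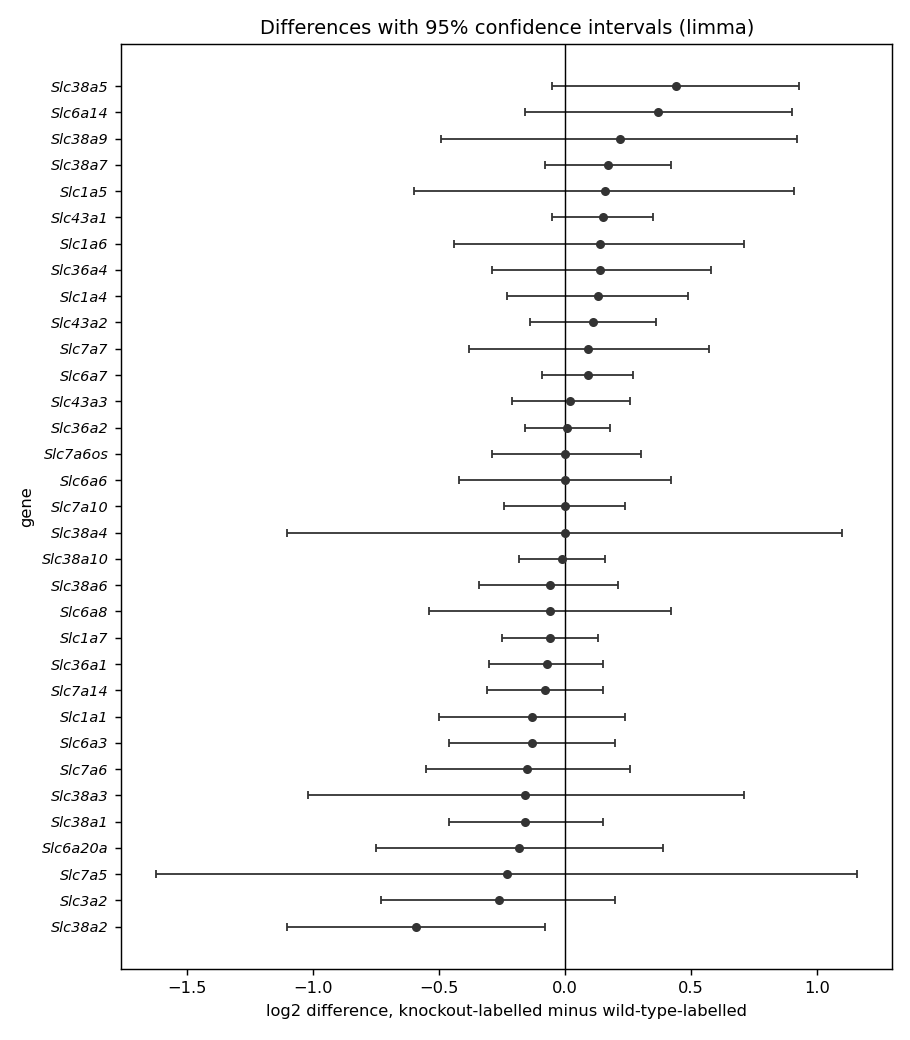
Log2 difference between labels, knockout-labelled minus wild-type-labelled (horizontal axis), for the 33 expressed genes, sorted by difference. Points are limma estimates and bars 95% confidence intervals from 3 and 4 arrays. Slc38a2, at -0.59, is the gene whose interval, -1.10 to -0.08, leaves out 0, and its adjusted p was 0.971.

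The sodium-coupled SLC38 carriers held the gene with the largest difference between labels. Slc38a2 encodes a neutral amino acid carrier of the type known as system A and is induced when cells lack amino acids. Its log2 signals were 9.73, 9.81 and 9.01 on wild-type-labelled arrays 1 to 3 and 8.65, 9.08, 9.08 and 8.89 on knockout-labelled arrays 1 to 4. The arrays labelled wild-type 1 and 2 were high, and wild-type 3 lay within the knockout-labelled range. Group means were 9.52 ± 0.44 (SD, n = 3) and 8.93 ± 0.20 (SD, n = 4). The log2 difference came to -0.59 with an SE of 0.22 and a 95% confidence interval of -1.10 to -0.08. This put knockout-labelled arrays at 66.4% of the wild-type-labelled level, with a limma unadjusted p of 0.0280 and adjusted p of 0.971. With wild-type 3 and knockout 3 left out it was -0.90, with a limma adjusted p of 0.259.

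Slc38a1, Slc38a2 and Slc38a4 lie in a row on chromosome 15 in the RefSeq table, with no other protein-coding gene between them. Slc38a1, which carries glutamine into cells, measured 6.06, 5.94 and 5.87 on wild-type-labelled arrays and 5.64, 6.10, 5.71 and 5.75 on knockout-labelled arrays. Its groups overlapped through the array labelled knockout 2 (difference -0.16, 95% confidence interval -0.46 to 0.15). Slc38a4, an imprinted system A gene, measured 6.61, 6.27 and 4.92 against 5.78, 5.30, 6.72 and 5.92. It was highest on knockout 3 and lowest on wild-type 3, and the label means were the same to 2 decimals (difference 0.00, 95% confidence interval -1.10 to 1.10). Without those 2 arrays the Slc38a4 difference was -0.77 (limma adjusted p = 0.367).

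Slc38a3 and Slc38a5 encode carriers that exchange glutamine for protons and can run in both directions. Slc38a3 measured 6.10, 6.67 and 6.41 on wild-type-labelled arrays and 6.32, 6.89, 5.26 and 6.48 on knockout-labelled arrays, with knockout 3 far below the rest. Its difference of -0.16 (-1.02 to 0.71) turned to 0.17 without knockout 3. Slc38a5 measured 4.55, 4.66 and 4.05 against 4.67, 4.55, 5.19 and 5.03. Its highest values were on knockout 3 and 4 and its lowest on wild-type 3, and the other 4 arrays lay within 4.55 to 4.67. The difference of 0.44 (-0.05 to 0.93, limma adjusted p = 0.971) was the largest in the positive direction among expressed members, and it was 0.14 without wild-type 3 and knockout 3. Slc38a10 and Slc38a6, whose roles are less well known, ranged over 6.61 to 6.70 and 5.19 to 5.59, and differed by -0.01 and -0.06.

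Among these families, SLC38 and SLC36 hold carriers of the lysosomal membrane. Slc38a9, an arginine sensor upstream of mTORC1, measured 5.43, 6.20 and 6.38 on wild-type-labelled arrays and 6.30, 6.74, 5.71 and 6.13 on knockout-labelled arrays. It was low on wild-type 1 and knockout 3, the 2 arrays on which Slc38a4 was highest. Its difference of 0.22 (-0.49 to 0.92) turned to -0.07 without wild-type 1, and was 0.58 with wild-type 3 and knockout 3 left out. Slc38a7, which lets glutamine out of lysosomes, measured 5.30, 5.30 and 5.10 against 5.28, 5.35, 5.41 and 5.58, a difference of 0.17 (-0.08 to 0.42) in which knockout 1 lay below wild-type 1 and 2. The SLC36 carriers Slc36a1 and Slc36a4 differed by -0.07 (-0.30 to 0.15) and 0.14 (-0.29 to 0.58), and the sign of Slc36a1 turned without wild-type 3 (0.02). Over the 7 arrays Slc36a1 ranged from 6.08 to 6.37 and Slc36a4 from 5.93 to 6.59, the latter highest on knockout 3 and 4. Slc36a4 had a second probe set, dimmer at a mean of 5.75, with a difference of -0.36, so its direction was not settled. Slc36a2, a carrier of glycine and proline, stayed within 4.93 to 5.03 on all 7 arrays, 4 of which shared one value (difference 0.01).

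The heavy chain and its light chains came next. Slc3a2, which encodes the common heavy chain CD98, measured 8.60, 8.36 and 7.85 on wild-type-labelled arrays and 8.15, 7.99, 8.16 and 7.72 on knockout-labelled arrays. As for Slc38a2, wild-type 1 and 2 were above every knockout-labelled array and wild-type 3 was not. Wild-type 1 and 2 lay above every knockout-labelled array in 4 members (Slc38a2, Slc3a2, Slc7a5 and Slc1a1), beside 6.85% of all genes tested. The Slc3a2 difference of -0.26 (95% confidence interval -0.73 to 0.20) put knockout-labelled arrays at 83.2% of the other group. It became -0.53 without wild-type 3 and knockout 3 (limma adjusted p = 0.383) and -0.10 without wild-type 1. Slc7a5, the light chain that brings in leucine and other large neutral amino acids, had the widest range of all expressed members, 2.33 log2 units. It measured 7.47, 7.20 and 5.14 against 6.22, 5.65, 6.62 and 6.99, so the label means of 6.60 ± 1.27 (SD, n = 3) and 6.37 ± 0.57 (SD, n = 4) were far closer than single arrays within one label. Its difference of -0.23 (-1.62 to 1.16) was -0.97 without wild-type 3. With wild-type 3 and knockout 3 both left out it was -1.05 (limma adjusted p = 0.476). It turned positive when wild-type 1 (0.20), wild-type 2 (0.06) or knockout 2 (0.01) was left out.

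Other light chains varied less. Slc7a7, which exports cationic amino acids in exchange for neutral ones, measured 6.62, 6.59 and 6.93 on wild-type-labelled arrays and 6.97, 7.05, 6.92 and 6.29 on knockout-labelled arrays. The array labelled knockout 4 lay below all others, which left a difference of 0.09 (-0.38 to 0.57). It was 0.27 without that array and 0.01 without knockout 2. Its relative Slc7a6 was likewise lowest on knockout 4, at 5.67 against 6.15 to 6.39 on the other 6 arrays (difference -0.15, -0.55 to 0.26). Leukocyte and epithelial marker lists were lowest on that array too, at 4.41 and 6.30, and their part in these values was not tested. Slc7a6os, the neighbour of Slc7a6 on chromosome 8, differed by 0.00, as did the small neutral amino acid exchanger Slc7a10. They ranged over 6.15 to 6.64 and 5.22 to 5.58. Slc7a14 ranged over 4.11 to 4.45 and differed by -0.08.

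In SLC1, Slc1a5 encodes the main exchanger of glutamine and small neutral amino acids. It measured 6.91, 7.26 and 6.07 on wild-type-labelled arrays and 6.85, 6.45, 7.40 and 6.91 on knockout-labelled arrays, highest on knockout 3 and lowest on wild-type 3. The difference of 0.16 (-0.60 to 0.91) turned to -0.35 without those 2 arrays, and the gene's second probe set differed by -0.02. Slc1a4, a related exchanger of serine and alanine, measured 4.68, 4.77 and 4.36 against 4.53, 4.68, 4.68 and 5.03, a difference of 0.13 (-0.23 to 0.49) that was 0.01 without wild-type 3 and 0.03 without knockout 4. The glutamate carrier Slc1a1 measured 5.03, 4.83 and 4.47 against 4.40, 4.68, 4.75 and 4.76. Wild-type 1 and 2 were the highest of all 7 arrays, beside 6.85% of all genes with both above every knockout-labelled array. The Slc1a1 difference was -0.13 (-0.50 to 0.24), or -0.32 with wild-type 3 and knockout 3 left out. Slc1a6 ranged from 3.71 on knockout 2 to 4.81 on knockout 3 and differed by 0.14 (-0.02 without knockout 3). Slc1a7 ranged over 4.28 to 4.49 and differed by -0.06.

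The brightest SLC6 probe set was that of Slc6a6, which encodes the taurine transporter. It measured 9.66, 9.36 and 9.15 on wild-type-labelled arrays and 9.35, 9.32, 9.75 and 9.13 on knockout-labelled arrays. The groups overlapped, with both means at 9.39 ± 0.26 (SD, n = 3 and n = 4) and a difference of 0.00 (95% confidence interval -0.42 to 0.42). With wild-type 3 and knockout 3 left out the difference was -0.24 and the labels no longer overlapped (limma adjusted p = 0.605). Without those 2 arrays, 10.9% of all genes were lower and 13.1% higher without overlap. The creatine transporter Slc6a8, between 5.68 and 6.60, differed by -0.06 (-0.54 to 0.42), lowest on knockout 4 at 5.68, without which the sign turned (0.10). Slc6a20a, a proline carrier with a high of 5.06 on wild-type 1, was lowest on knockout 2 at 3.99 (difference -0.18, 0.02 without that array, and -0.40 with wild-type 3 and knockout 3 left out). Slc6a14, a carrier of neutral and cationic amino acids found in epithelia, measured 4.40, 4.35 and 3.56 against 4.35, 4.41, 4.77 and 4.35. Its difference of 0.37 (-0.16 to 0.90) became 0.09 without wild-type 3, and -0.01 without wild-type 3 and knockout 3. Slc6a3 ranged over 4.10 to 4.66 and Slc6a7 over 4.24 to 4.45, with differences of -0.13 and 0.09.

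SLC43 held the brightest probe set of all 61 genes. Slc43a3, which carries purine bases rather than amino acids, measured 10.85, 10.76 and 10.86 on wild-type-labelled arrays and 10.88, 10.88, 10.98 and 10.65 on knockout-labelled arrays. Label means were 10.82 ± 0.06 (SD, n = 3) and 10.85 ± 0.14 (SD, n = 4), a difference of 0.02 (-0.21 to 0.26) whose sign turned without wild-type 2 or knockout 3. Slc43a1, a leucine carrier that lies near Slc43a3 on chromosome 2, measured 5.79, 5.80 and 5.70 against 5.80, 5.91, 6.02 and 5.93. Every knockout-labelled value equalled or exceeded the highest wild-type-labelled one, with knockout 1 and wild-type 2 tied at 5.80, and the difference was 0.15 (-0.05 to 0.35, limma adjusted p = 0.971). Slc43a2, another leucine carrier, differed by 0.11, with 4 arrays at 1 shared value and wild-type 3 lowest at 4.67.

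**Figure D3:**
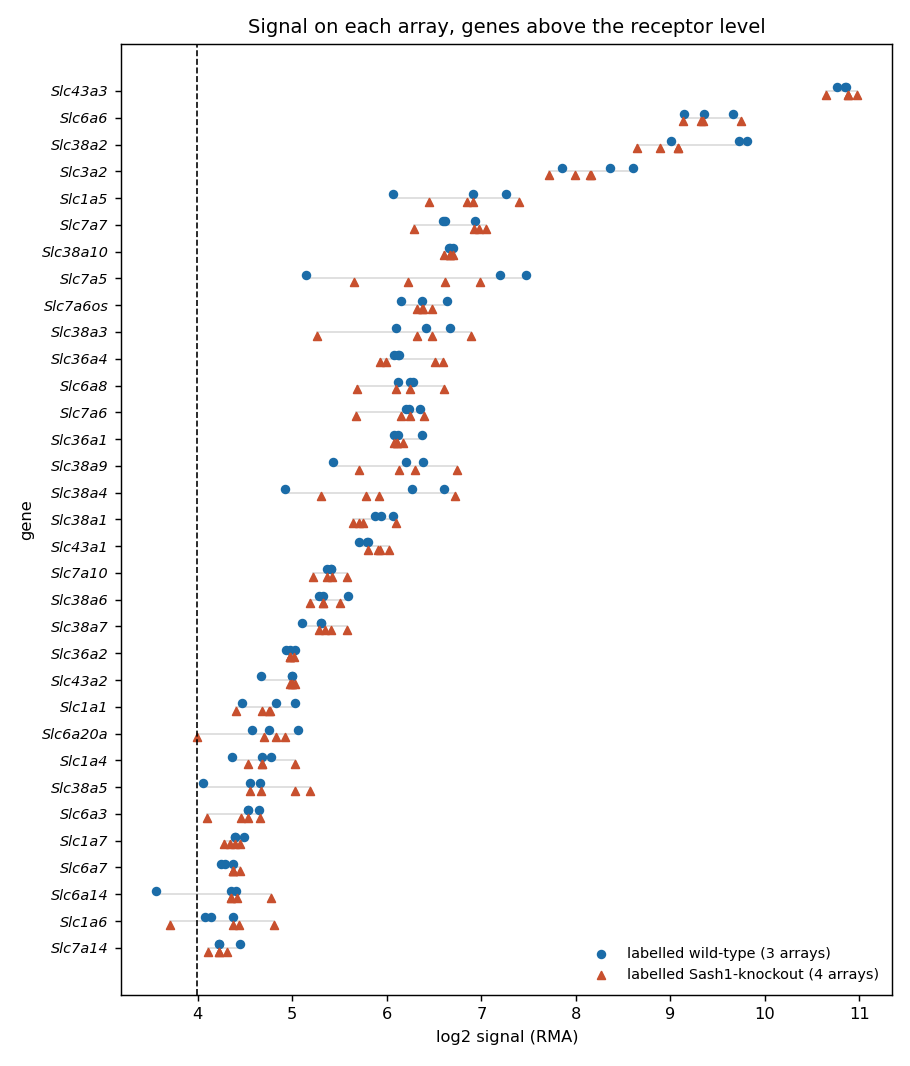
Log2 signal on each array (horizontal axis) for the 33 expressed genes (vertical axis, by mean signal), with circles for the 3 arrays labelled wild-type and triangles for the 4 labelled Sash1-knockout. Grey lines span all 7 arrays, and the dashed line marks 3.99. Circles and triangles overlap or touch in every row, and the spans run from 0.09 log2 units in Slc38a10 to 2.33 in Slc7a5.

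Single arrays differed by more than the label means in many members. Over the 33 expressed members the range over 7 arrays had a median of 0.63 log2 units, against 0.60 for all genes tested. It was over 1 unit in 10 of them (Slc38a2, Slc1a5, Slc7a5, Slc38a3, Slc38a9, Slc38a4, Slc6a20a, Slc38a5, Slc6a14 and Slc1a6) and under 0.5 in 14. The array labelled wild-type 3 gave the lowest value in 10 of the 33 genes and knockout 4 in 8, while knockout 3 gave the highest in 11. These counts of ranges and of arrays were not made over all genes, so they are not shown to be particular to the members. The 90th percentile of the range over all genes tested was 1.16. Immediate early and dissociation stress genes, 12 of 12 above the receptor level, averaged 8.83, 8.62 and 7.29 on wild-type-labelled arrays and 8.51, 7.16, 9.19 and 6.47 on knockout-labelled arrays. The wide-ranging members had no single profile beside this list, which lay at -0.72 on wild-type 3 and 1.18 on knockout 3 from its mean. Slc1a5, Slc7a5, Slc38a4, Slc6a20a, Slc38a5, Slc6a14 and Slc1a6 had the same signs as the list on those arrays. Slc38a3 and Slc38a9 had the opposite signs there, and Slc38a2 was below its own mean on both. The share of all genes with these signs was not counted. Slc38a4 was below its own mean on wild-type 3 (-1.01) and knockout 2 (-0.63) and above it on wild-type 1 (0.68) and knockout 3 (0.79). Slc38a9 had the opposite signs on these 4 arrays, at 0.25, 0.61, -0.70 and -0.42. On knockout 4, where the stress and epithelial lists lay at -1.54 and -1.36 from their means, Slc7a5 was 0.52 above its own. The epithelial, leukocyte and stress lists had the same sign on all 7 arrays. The part of dissociation stress, of epithelial RNA or of leukocyte RNA in these values was not tested.

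**Figure D4:**
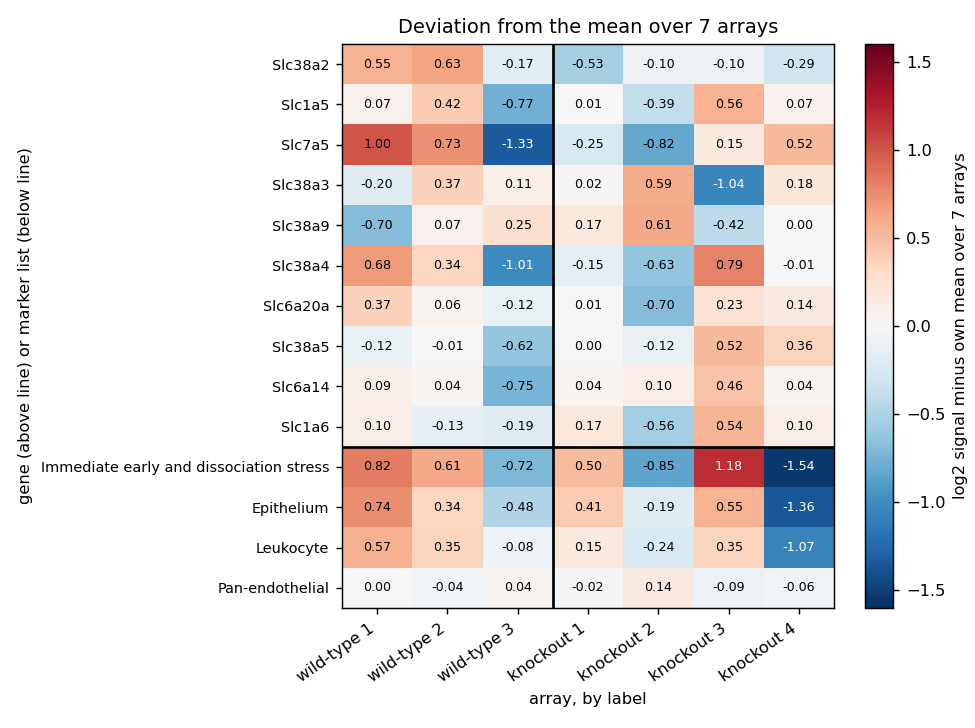
Log2 signal minus the row's own mean over 7 arrays (colour, and printed in each cell), for the 10 expressed genes whose range passed 1 log2 unit and, below the horizontal line, for 4 marker lists. Columns are arrays, with those labelled wild-type left of the vertical line. Slc7a5 runs from -1.33 on wild-type 3 to 1.00 on wild-type 1, while the pan-endothelial list stays within -0.09 to 0.14.

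Genes known to respond to amino acid shortage were examined beside the transporters. The counts of these lists stand beside 54.4% of all genes tested with a higher mean (62.1% and 68.7% under the other scalings) and 3.34% at an unadjusted p under 0.05. Of 23 tested ATF4 targets outside the families, 10 had higher and 13 lower means on the arrays labelled knockout, with a median of -0.02, and 0 were called by limma (1 at an unadjusted p under 0.05). That gene was Shmt2, a mitochondrial enzyme of serine use, at 6.35, 6.75 and 6.96 against 6.96, 7.17, 6.96 and 7.20 (difference 0.39, 0.02 to 0.75, limma adjusted p = 0.971; 0.22 without wild-type 1). Asns, the asparagine synthetase, measured 6.26, 6.02 and 5.86 against 5.58, 5.90, 5.97 and 5.97, highest on wild-type 1 and lowest on knockout 1 (difference -0.19). Leaving out either of these arrays gave -0.09 and -0.10, and leaving out wild-type 3 gave -0.29. Cth, which makes cysteine, differed by -0.25, and by -0.04 without wild-type 1. The transcription factor Atf5 differed by 0.16, and by 0.09 without wild-type 2 or knockout 4. The list averaged 5.83 to 6.20 on wild-type-labelled arrays and 5.92 to 6.09 on knockout-labelled arrays.

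Cytosolic aminoacyl-tRNA synthetases, which load amino acids onto tRNA, had higher means in 13 and lower means in 5 of 18 tested genes, with a median of 0.04 and 0 called by limma (1 at an unadjusted p under 0.05). Cars, the cysteinyl enzyme, measured 6.68, 6.15 and 5.93 on wild-type-labelled arrays and 5.57, 5.94, 5.86 and 5.85 on knockout-labelled arrays (difference -0.45, -0.89 to -0.01, limma adjusted p = 0.971). It was -0.24 without wild-type 1, the array on which it was highest. Sars, the seryl enzyme, measured 8.38, 8.04 and 7.66 against 7.33, 7.81, 7.81 and 7.70 (difference -0.36, -0.83 to 0.10). It was -0.19 without wild-type 1 and -0.55 without wild-type 3. Like Slc38a2 and Asns, both were lowest on knockout 1. Shmt2, Farsa and Farsb were lowest on wild-type 1, Cth on knockout 3 and Atf5 on wild-type 2. The share of all genes lowest on knockout 1 was not counted. Farsa and Farsb, subunits of the phenylalanyl enzyme, differed by 0.18 and 0.26.

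Amino acid sensing by mTORC1 gave 16 higher and 14 lower means among 30 tested genes, a median of 0.00 and 0 called by limma (0 at an unadjusted p under 0.05). Wdr24 of the GATOR complex differed by 0.33, the uncharged tRNA sensor kinase Eif2ak4 by -0.37, the folliculin partner Fnip2 by -0.28 and Mtor itself by 0.22. Amino acid carriers outside the 7 families had higher means in 11 and lower means in 3 of 14 tested genes, with a median of 0.12 and 0 called by limma (2 at an unadjusted p under 0.05). Both of those export amino acids from lysosomes. Slc66a1, a carrier of cationic amino acids, measured 4.69, 4.60 and 4.99 on wild-type-labelled arrays and 4.99, 5.23, 5.20 and 5.23 on knockout-labelled arrays, touching at 4.99 (difference 0.40, 0.12 to 0.69, limma adjusted p = 0.971). Ctns, the cystine exporter, measured 6.45, 6.31 and 6.09 against 6.55, 6.75, 6.53 and 6.48, without overlap (difference 0.29, 0.02 to 0.57, limma adjusted p = 0.971). The mitochondrial glutamate carrier Slc25a22 differed by 0.32 and the vesicular glutamate carrier Slc17a8 by -0.13.

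Promoter sequence was available for 46 of the 61 genes, as windows of 250 bases before to 50 after a start site in RefSeq (GRCm38.p6). The windows were searched on both strands for TGATGNAA, the core of the element bound by ATF4 with C/EBP factors, because several amino acid transporters are known responders to amino acid shortage. It occurred in 5 of 64 member windows (7.81%), belonging to Slc1a4, Slc6a21, Slc7a11 and Slc7a7, against 3.97% of all 32851 windows. The AP-1 motif TGANTCA, bound by immediate early factors, occurred in 9 of 64 (14.1%) against 7.81%. Windows were at hand for 24 of the 33 expressed members. Among these the first motif lay in windows of Slc1a4 and Slc7a7, and the second in those of Slc38a10, Slc38a7 and Slc6a14. Slc7a5, Slc1a5, Slc6a6 and Slc43a3 were among the genes not searched. A match is a run of letters and not a shown binding site.

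The stretches below show the 2 expressed genes with the ATF4 core beside Slc38a2 and Slc3a2, which had the largest negative differences among expressed members and no match. Capitals mark the match, and each stretch reads 5′ to 3′ on the minus strand of the chromosome, which is the gene's own strand. The Slc1a4 stretch, chr11:20332704-20332763, runs from 50 bases before to 10 after the start, and the Slc7a7 stretch, chr14:54417935-54418094, from 150 before to 10 after the most upstream of its 5 starts. The Slc38a2 stretch, chr15:96699729-96699828, and the Slc3a2 stretch, chr19:8713898-8713997, are the 100 bases before the start.
Slc1a4: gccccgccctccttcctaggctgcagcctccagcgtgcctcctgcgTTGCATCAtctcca
Slc7a7: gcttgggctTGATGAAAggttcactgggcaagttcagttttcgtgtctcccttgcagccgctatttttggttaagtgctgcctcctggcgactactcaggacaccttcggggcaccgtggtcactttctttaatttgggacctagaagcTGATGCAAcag
Slc38a2: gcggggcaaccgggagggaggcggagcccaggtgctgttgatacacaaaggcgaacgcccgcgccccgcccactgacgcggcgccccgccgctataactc
Slc3a2: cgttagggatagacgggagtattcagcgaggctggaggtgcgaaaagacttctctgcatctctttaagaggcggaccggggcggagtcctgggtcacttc

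None of these 4 genes passed the test between labels, and their values are given above. The windows say nothing about elements elsewhere in these genes.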

How the data were processed

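RNA of 7 samples was measured on 1 array each. The authors deposited 1 value per probe set and array, made with RMA in Affymetrix Expression Console 1.1, per the submitters' processing notes. Their log2 scale was read from the values, which the authors deposited with 2 decimals. RMA already equalizes the arrays and carries no detection call, and scanner files, slides and scan dates were not used here. Array medians were 3.86 to 4.03. The number of arrays limits precision. Of 41345 probe sets, 23521 had 1 gene symbol, 1814 several and 16010 none listed, by GEO's annotation of the platform, and 99.2% of the first kind were found in RefSeq by gene identifier.

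A gene was represented by its probe set with the highest mean over all 7 arrays. Labels were compared across all genes with limma 3.58.1 (lmFit, eBayes, two-sided) under R 4.3.3. Genotype was the sole term, with Benjamini-Hochberg adjustment over all 16637 genes tested. The code was tested on simulated data. Arrays with the same replicate number did not deviate together (r of -0.18, -0.20 and -0.55 for numbers 1 to 3), so numbers were not taken as pairs. Members and lists were chosen with earlier results of these data known. Named genes were Sash1, the sort antigens, all members, and the 4 genes of smallest unadjusted p in each other amino acid list. Alternatives were filters on dim genes, quantile normalization, median centring, other variance models, averaging the probe sets of a gene, replicate blocks and left-out arrays.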

Additional observations from a re-analysis of the deposited data

Results flagged for a closer look

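Among the 4 arrays labelled knockout, 1 value stood apart from the other 3 for 9 of 53 genes, by a gap filling more of the group's range than Dixon's 95% limit allows. Chance flags about 1 in 20 groups of untied, normally distributed values. The values here were rounded and often tied, and some of the 53 genes had been chosen by small p. The share over all genes was not counted, so the 9 are not shown to be an excess. In 4 of the 9 the other 3 arrays shared a value. Slc36a2 was 5.02 on knockout 1 with the others at 4.98, and Slc6a7 4.45 on knockout 1 with the others at 4.37. Cth was 4.16 on knockout 3 with the others at 4.29, and Mtor 7.36 on knockout 2 with the others at 6.90. Slc6a14 was 4.77 on knockout 3 against 4.35 to 4.41. Eif2ak4 was 5.05 on knockout 3 against 5.62 to 5.63. Slc66a1 was 4.99 on knockout 1 against 5.20 to 5.23. On knockout 4 the genes of both antigens sorted against, Ptprc (CD45) and Epcam (CD326), were low, with Ptprc at 3.51 against 4.57 to 4.72 and Epcam at 4.06 against 5.14 to 5.19.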

How the results depend on the processing

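Under every alternative run, 0 members and 0 of all genes were called by limma at an adjusted p under 0.05 (or 0.1 with all arrays), and 33 members were above the receptor level, or 28 with the median of all genes as the limit. Members at an unadjusted p under 0.05 numbered 1 with all arrays, 2 with median centring, 3 when wild-type 3 and knockout 3 were left out, and 0 with the replicate number as a fixed block. That fit does not use the array labelled knockout 4, which has no partner. All genes at that p numbered 556, with 1310 under array weights, 1780 without those 2 arrays, 225 with the fixed and 367 with the random replicate block. Leaving out 1 array gave 0 to 3 members and 293 (without wild-type 2) to 1314 (without wild-type 3) genes. Labels without overlap numbered 0 members, 4 higher with quantile normalization (5.42% of all genes), 5 higher with median centring (6.34%), 6 without wild-type 3 and knockout 3, and 0 to 4 without 1 array. Without wild-type 3 alone, 4 members were lower, beside 6.85% of all genes, and 0 higher, beside 8.44%. The 6 were Slc38a2, Slc3a2, Slc7a5, Slc38a4, Slc6a6 and Slc1a1, all lower on the knockout-labelled arrays, beside 10.9% of all genes. Signs turned for Slc38a10 with median centring (0.04), Slc1a5 with array weights (-0.03), Slc36a4 with the mean of its probe sets (-0.11) and Slc6a8 with the fixed block (0.10). Without wild-type 3 and knockout 3 they turned for Slc1a5 (-0.35), Slc38a3 (0.18), Slc36a1 (0.02), Slc38a6 (0.08), Slc6a14 (-0.01) and Slc1a6 (-0.08). With 1 array left out, 11 of the 33 turned: Slc1a5 ranged from -0.18 to 0.41, Slc1a6 from -0.02 to 0.34, Slc36a1 from -0.13 to 0.02, Slc36a2 from -0.02 to 0.03, Slc38a3 from -0.37 to 0.17, Slc38a6 from -0.12 to 0.03, Slc38a9 from -0.07 to 0.40, Slc43a3 from -0.02 to 0.09, Slc6a20a from -0.30 to 0.02, Slc6a8 from -0.21 to 0.10 and Slc7a5 from -0.97 to 0.20. The causes were not tested. The Slc38a2 difference kept its sign in every fit, and its limma adjusted p ranged from 0.259 to 1.00.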
